A study of Homo sapiens with 11 samples.

Results

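The autophagy genes described here are 38 genes chosen by name as core components of macroautophagy, out of 58735 genes in the deposited table. They were followed in HEK293T cells, a human embryonic kidney line that carries the SV40 large T antigen, in which 1 of 3 genes of ubiquitin-like protein pathways had been silenced. NAE1 is a subunit of the enzyme that activates NEDD8, UBE2M is an E2 enzyme that passes NEDD8 on to cullins, and URM1 is a ubiquitin-like protein that also carries sulfur for tRNA thiolation. RNA was taken 48 h after transfection of 50 nM siRNA for NAE1 (called siNAE1 cells, 3 libraries), 70 nM for UBE2M (siUBE2M cells, 3 libraries) and 60 nM for URM1 (siURM1 cells, 2 libraries). The 3 control libraries are labelled as a control siRNA, and the study's methods name a non-targeting siRNA as the negative control of the transfections. A figure caption of the supplement calls the control of the RNA-seq HKWT, and these sources do not settle whether an siRNA was given to these cells. All libraries come from 1 cell line at 1 time and, per knockdown, 1 siRNA product at 1 dose, and the doses differ between knockdowns, so the knockdowns cannot be told apart from their siRNAs or doses. The labels call the replicates biological.

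In autophagy a double membrane, the phagophore, grows around cytoplasmic cargo, closes into an autophagosome and fuses with a lysosome. The ULK1 kinase complex starts the process, a class III PI3-kinase complex marks the membrane with a phosphoinositide, and WIPI, ATG2 and ATG9 proteins feed its growth. A pair of ubiquitin-like conjugation reactions then attaches proteins of the LC3 and GABARAP family to the membrane lipid, where cargo receptors bind them.

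The 11 libraries held 11733163 to 16321391 counts, and 18368 genes passed the filter on low counts and were tested. Each targeted gene fell in its own knockdown: NAE1 went from a library-size-scaled count (CPM) of 102 ± 5.88 in control cells to 39.7 ± 4.03 CPM in siNAE1 cells (SD, n = 3 and 3), UBE2M from 264 ± 2.69 to 16.7 ± 2.02 CPM in siUBE2M cells (n = 3 and 3), and URM1 from 53.5 ± 2.32 to 15.3 ± 0.247 CPM in siURM1 cells (n = 3 and 2). Targeted genes also differed from control in the other knockdowns, in the edgeR test described below at adjusted p under 0.05. UBE2M had log2 fold changes of -0.16 in siNAE1 and -0.37 in siURM1 cells. NAE1 had 0.28 in siUBE2M and 0.38 in siURM1 cells, and URM1 had 0.28 in siNAE1 cells. The siUBE2M value of URM1 was -0.16, short of the threshold. The siNAE1 value of UBE2M did not pass without control replicate 1, 2 or 3 or siNAE1 replicate 1 or 2. All 4 HEK293 marker genes checked (NEFL, NEFM, PAX2 and LHX1) were detected in every group. Their summed level was 142 to 155 CPM in control, 281 to 294 CPM in siNAE1, 144 to 151 CPM in siUBE2M and 254 to 273 CPM in siURM1 libraries, and its part in the results below was not tested. Single markers moved apart, in log2 fold change against control. In siUBE2M cells PAX2 fell (-0.90) and NEFL rose (0.18). In siNAE1 cells NEFM (1.19) and NEFL (0.75) rose. In siURM1 cells NEFM (1.19), PAX2 (0.92) and LHX1 (0.70) rose. Their other values were short of the threshold. The 7 hepatocyte markers, taken as genes of another cell type, summed to 0.0767 to 0.982 CPM over the libraries, none passed the filter, and SERPINA1 was at 0 in every library.

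Of the 38 autophagy genes, 37 passed the filter. MAP1LC3A, an LC3 protein, had 0 to 10 counts per library and was not tested. The levels in control cells, compared between genes as FPKM, fragments scaled by gene length and library size, ran from 38.7 ± 0.831 FPKM for WDR45B and 27.4 ± 0.772 FPKM for GABARAPL2 down to 0.442 ± 0.0930 FPKM for GABARAP and 0.159 ± 0.158 FPKM for MAP1LC3A (SD, n = 3), with a median of 8.10 FPKM. The genes between these ends formed a continuous series, in which 26 of the 37 pairs of neighbours had overlapping libraries and so no order beyond their spread. Among the cargo receptors CALCOCO2 was highest and OPTN lowest, and among the PI3-kinase genes BECN1 was highest and PIK3C3 lowest. In GENCODE v44, genes of the opposite strand cover over 10% of the exon bases of 8 members (ATG101, BECN1, ATG14, WIPI1, ATG4D, ATG7, GABARAP and SQSTM1), and genes of the same strand cover 38.8% of ATG9A, 35.4% of GABARAP and 14.4% of WDR45. Whether the deposited counts kept strands apart is not given in the sources used here, and the part of such neighbours in the values was not tested.

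**Figure D1:**
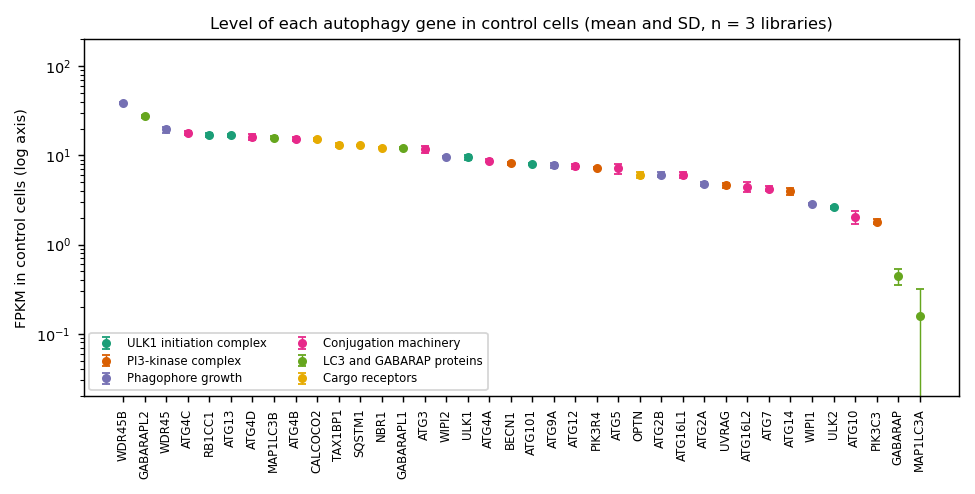
FPKM of the 38 autophagy genes in control cells on a log axis, ordered from high to low and coloured by class, with points for the mean and bars for the SD of 3 libraries. The range runs from 38.7 FPKM for WDR45B to 0.159 FPKM for MAP1LC3A, whose lower bar leaves the axis.

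Against control, a gene is said to rise or fall where the edgeR quasi-likelihood test gave a Benjamini-Hochberg adjusted p under 0.05 over all 18368 genes, and to be a differentially expressed gene (DEG) where its log2 fold change was also at least 1 in size. In siNAE1 cells 12 of the 37 tested autophagy genes rose (32.4%) and 12 fell (32.4%), where 27.6% of all tested genes rose and 27.1% fell. Only ULK2 and ATG10 were DEGs (5.41%), where 13.9% of all genes were. In siUBE2M cells 15 rose (40.5%) and 10 fell (27.0%), beside 22.7% and 22.6% of all genes, and ATG14 and ATG16L1 were DEGs (5.41%, beside 7.11% of all genes). In siURM1 cells 8 rose (21.6%) and 11 fell (29.7%), beside 20.8% and 20.8% of all genes, and ATG4C was the 1 DEG (2.70%, beside 7.62%). The median log2 fold change of the 37 genes was 0.03, 0.02 and -0.13 in siNAE1, siUBE2M and siURM1 cells, against -0.00, 0.01 and -0.02 over all genes. Their median absolute log2 fold change was 0.44, 0.35 and 0.21, against 0.42, 0.34 and 0.34 over all genes. The 3 comparisons share the control libraries, and a bulk level cannot tell fewer transcripts per cell from a different make-up of the culture.

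**Figure D2:**
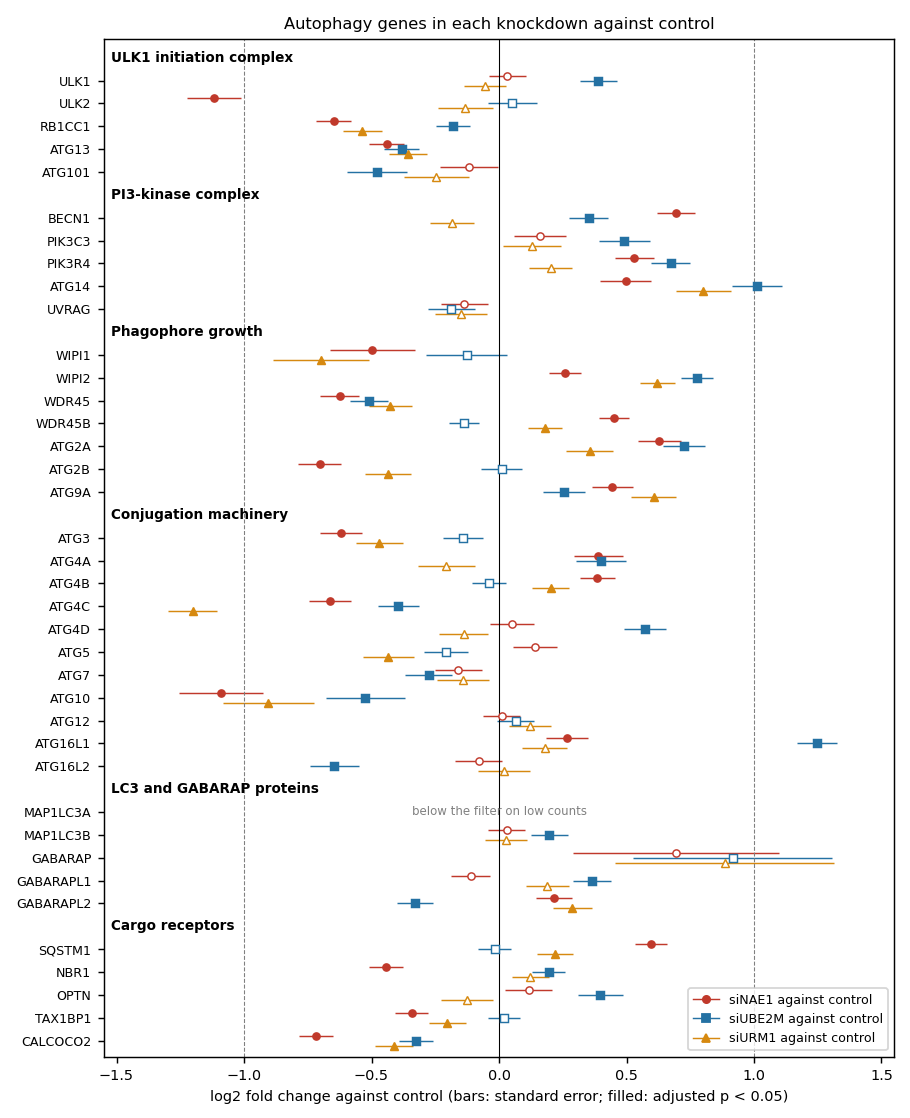
Log2 fold change against control of each autophagy gene in siNAE1 (circles), siUBE2M (squares) and siURM1 (triangles) cells, by class, with bars for the standard error, filled symbols for an adjusted p under 0.05 and dashed lines at -1 and 1. PI3-kinase genes lie mostly right of 0 and ULK1-complex genes mostly left, and 5 filled symbols lie beyond a dashed line.

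Of the 5 genes of the ULK1 complex, 0 rose and 3 fell in siNAE1 cells, 1 rose and 3 fell in siUBE2M cells, and 0 rose and 2 fell in siURM1 cells, with class medians of -0.44, -0.18 and -0.25, and with 5 genes these counts are a description beside the shares over all genes given above. ULK2 (ENSG00000083290, chr17:19770829-19867936, minus strand, GRCh38), a kinase paralogue of ULK1, had 25.0, 26.0 and 26.7 CPM in the control libraries and 13.3, 11.5 and 10.9 CPM in siNAE1 libraries. It had 27.4, 27.6 and 25.4 CPM in siUBE2M libraries and 24.4 and 22.8 CPM in siURM1 libraries. The siNAE1 libraries alone were far below the rest, while siUBE2M libraries overlapped the control and both siURM1 libraries lay just under it. The log2 fold change of ULK2 was -1.12 ± 0.11 (SE, adjusted p = 1.34e-10) in siNAE1 cells. It was 0.05 ± 0.10 after UBE2M knockdown (adjusted p = 0.697) and -0.13 ± 0.11 after URM1 knockdown (adjusted p = 0.347). On the log2(FPKM + 1) scale, which shrinks the change of low genes, the siNAE1 value was -0.72, under the DEG threshold. ULK1, the main initiating kinase, rose in siUBE2M cells (0.39 ± 0.07, adjusted p = 4.91e-05) and differed from control by 0.03 ± 0.07 in siNAE1 and -0.05 ± 0.08 in siURM1 cells.

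ATG13, the subunit that links the kinase to the scaffold, fell in each knockdown, by 0.44 with siNAE1, 0.38 with siUBE2M and 0.36 with siURM1 on the log2 scale. RB1CC1, the scaffold also called FIP200, had -0.65 in siNAE1 and -0.54 in siURM1 cells. Its fall of 0.18 on the log2 scale in siUBE2M cells missed the threshold without control replicate 2 or 3 or siUBE2M replicate 1 or 3 (-0.19 to -0.12, adjusted p = 0.0505 to 0.189). ATG101, which stabilizes ATG13, fell in siUBE2M cells (-0.48 ± 0.12) and had -0.12 ± 0.11 and -0.25 ± 0.13 in siNAE1 and siURM1 cells.

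Genes of the class III PI3-kinase complex rose or stayed short of the threshold, and none of the 5 fell in any knockdown. In siNAE1 cells 3 rose, in siUBE2M cells 4 and in siURM1 cells 1, with class medians of 0.50, 0.49 and 0.13. Over all genes 27.6%, 22.7% and 20.8% rose, so the siURM1 count, 1 of 5, is near the share of all genes. ATG14 (ENSG00000126775, chr14:55366392-55411858, minus strand), the subunit that directs the complex to autophagosome formation, had 18.9, 22.1 and 19.7 CPM in control libraries and 28.8, 24.9 and 32.2 CPM in siNAE1 libraries. It had 43.6, 38.9 and 40.0 CPM in siUBE2M libraries and 34.0 and 36.5 CPM in siURM1 libraries. All knockdown libraries were above all control libraries, and the siUBE2M libraries were the highest of all. Its log2 fold change was 0.50 ± 0.10 in siNAE1 (adjusted p = 0.000109), 1.01 ± 0.10 in siUBE2M (adjusted p = 4.58e-10) and 0.80 ± 0.11 after URM1 knockdown (adjusted p = 3.97e-07). The siUBE2M value sat at the DEG threshold and was 0.97 without control replicate 1 or without siUBE2M replicate 1. FBXO34 lies on the opposite strand over 20.8% of the exon bases of ATG14 and had 340 to 705 counts per library.

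BECN1, the Beclin 1 scaffold of the complex, rose in siNAE1 (0.69 ± 0.08, adjusted p = 2.60e-09) and siUBE2M cells (0.35 ± 0.08, adjusted p = 0.000292), while its siURM1 value was -0.18 ± 0.09 (adjusted p = 0.0909). On the opposite strand, CNTD1 covers 12.4% of its exon bases and had 13 to 48 counts per library. PSME3 covers 4.68% of them and had 2496 to 4511 counts, and the part of either was not tested. PIK3R4, the regulatory subunit VPS15, had 0.53, 0.67 and 0.20 with the first 2 past the threshold. PIK3C3, the catalytic subunit VPS34, rose in siUBE2M cells (0.49 ± 0.10), with 0.16 ± 0.10 and 0.13 ± 0.11 in siNAE1 and siURM1 cells. UVRAG, which replaces ATG14 in an endosomal form of the complex, passed the test in no knockdown, with -0.14 ± 0.09, -0.19 ± 0.09 and -0.15 ± 0.10.

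The phagophore growth class held both directions. All 7 members passed the test in siNAE1 cells, where WIPI2, WDR45B, ATG2A and ATG9A rose and WIPI1, WDR45 and ATG2B fell, and each had the same call in siURM1 cells, which were compared with the same controls. In siUBE2M cells WIPI2, ATG2A and ATG9A rose and WDR45 fell. The shares that rose were 57.1%, 42.9% and 57.1% and those that fell 42.9%, 14.3% and 42.9% in siNAE1, siUBE2M and siURM1 cells, beside 27.6%, 22.7% and 20.8% rising and 27.1%, 22.6% and 20.8% falling over all genes. WIPI2 (ENSG00000157954, chr7:5190188-5233826, plus strand), which reads the phosphoinositide and recruits ATG16L1, had 88.0, 87.6 and 86.1 CPM in control libraries and 101, 103 and 109 CPM in siNAE1 libraries. It had 150.1, 144 and 155 CPM in siUBE2M libraries and 133 and 136 CPM in siURM1 libraries. The groups did not overlap, in the order control, siNAE1, siURM1 and siUBE2M. The log2 fold changes were 0.26 ± 0.06 (adjusted p = 0.000851), 0.78 ± 0.06 (adjusted p = 8.59e-12) and 0.62 ± 0.07 (adjusted p = 9.50e-09) in siNAE1, siUBE2M and siURM1 cells.

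Values of paralogues in this class are set side by side without a test between them. WIPI1, a less abundant relative of WIPI2, had log2 fold changes of -0.50 in siNAE1, -0.13 in siUBE2M (adjusted p = 0.548) and -0.70 in siURM1 cells, and the last missed the threshold without siURM1 replicate 1 (-0.56, adjusted p = 0.0718). WDR45 (WIPI4) fell in every knockdown (-0.63, -0.51 and -0.43), while its relative WDR45B (WIPI3) had 0.45 in siNAE1, -0.14 in siUBE2M (adjusted p = 0.0597) and 0.18 in siURM1 cells. The siURM1 value of WDR45B was lost without control replicate 1 or either siURM1 replicate (0.16 to 0.20, adjusted p = 0.0592 to 0.16). ATG2A and ATG2B are lipid transfer proteins that feed the growing membrane. ATG2A had 0.63, 0.73 and 0.36, whereas ATG2B had -0.70, 0.01 and -0.44 in the same order, its siUBE2M value short of the threshold (adjusted p = 0.926). The siURM1 value of ATG2A was 0.24 without siURM1 replicate 1 (adjusted p = 0.126). ATG9A, the transmembrane scramblase of the class, had 0.44, 0.26 and 0.61, and its siUBE2M value was 0.21 without control replicate 2 (adjusted p = 0.0663).

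Each knockdown had 1 DEG among the 11 genes of the conjugation machinery (9.09%), beside 13.9%, 7.11% and 7.62% of all genes. In siNAE1 cells 3 rose and 3 fell, in siUBE2M cells 3 rose and 4 fell, and in siURM1 cells 1 rose and 4 fell, with medians of 0.01, -0.14 and -0.14. The siNAE1 shares (27.3% each way) lie at those of all genes (27.6% and 27.1%), and in the others 27.3% and 9.09% rose and 36.4% and 36.4% fell, beside 22.7% and 20.8% rising and 22.6% and 20.8% falling over all genes. ATG16L1 (ENSG00000085978, chr2:233210051-233295674, plus strand) places the ATG12-ATG5 conjugate on the membrane. It had 34.5, 36.7 and 39.4 CPM in control libraries, 47.3, 42.6 and 43.0 CPM in siNAE1 libraries, 85.7, 88.4 and 88.2 CPM in siUBE2M libraries and 43.8 and 39.6 CPM in siURM1 libraries. Every siUBE2M library was well above all others, while siNAE1 and siURM1 libraries lay only a little above the control and overlapped each other. Its log2 fold change was 1.25 ± 0.08 in siUBE2M (adjusted p = 2.16e-14), 0.27 ± 0.08 in siNAE1 (adjusted p = 0.00559) and 0.18 ± 0.09 after URM1 knockdown (adjusted p = 0.108). Its paralogue ATG16L2 went the other way in siUBE2M cells (-0.65 ± 0.09, adjusted p = 1.23e-06), with -0.08 ± 0.09 in siNAE1 and 0.02 ± 0.10 in siURM1 cells.

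ATG4C (ENSG00000125703, chr1:62784135-62865513, plus strand) is 1 of 4 ATG4 proteases, which trim LC3 and GABARAP proteins before conjugation and release them from lipid afterwards. It had 52.7, 58.9 and 56.5 CPM in control libraries, 33.4, 36.2 and 36.6 CPM in siNAE1 libraries, 42.6, 41.5 and 43.6 CPM in siUBE2M libraries and 22.9 and 25.9 CPM in siURM1 libraries. The 4 groups did not overlap, with siURM1 lowest. The log2 fold changes were -0.66 ± 0.08 (adjusted p = 3.14e-08), -0.40 ± 0.08 (adjusted p = 0.000136) and -1.20 ± 0.10 (adjusted p = 8.16e-12) in siNAE1, siUBE2M and siURM1 cells. The other 3 proteases showed no fall that passed the test. ATG4A had 0.39, 0.40 and -0.21, ATG4B had 0.39, -0.04 and 0.20, and ATG4D had 0.05, 0.57 and -0.14, and of these the positive values of at least 0.20 passed the test. The siURM1 value of ATG4B was lost without control replicate 3 or either siURM1 replicate (0.18 to 0.21, adjusted p = 0.0906 to 0.112).

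ATG10 (ENSG00000152348, chr5:81972025-82276857, plus strand), the E2-like enzyme that joins ATG12 to ATG5, was among the least abundant members. RPS23, on the opposite strand over 6.87% of its exon bases, had 4234 to 7283 counts per library, and its part in the values of ATG10 was not tested. It had 10.1, 13.2 and 10.3 CPM in control libraries, 4.83, 5.66 and 5.29 CPM in siNAE1 libraries, 7.87, 7.33 and 8.21 CPM in siUBE2M libraries and 5.05 and 6.99 CPM in siURM1 libraries. All knockdown libraries were below all control libraries, and 1 siURM1 library fell among the siNAE1 libraries while the other lay just under the siUBE2M libraries. The log2 fold changes were -1.09 ± 0.16 (adjusted p = 1.18e-06), -0.52 ± 0.15 (adjusted p = 0.00598) and -0.90 ± 0.18 (adjusted p = 0.000124). Control replicate 2, the highest library, weighed on these values: without it they were -0.96 in siNAE1 cells, under the DEG threshold, and -0.38 in siUBE2M cells (adjusted p = 0.0769). The siURM1 value was -0.68 without siURM1 replicate 1 (adjusted p = 0.017) and -1.15, past the DEG threshold, without siURM1 replicate 2. On the log2(FPKM + 1) scale the siNAE1 value was -0.64.

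ATG3, the E2-like enzyme that attaches LC3 to lipid, fell in siNAE1 (-0.62 ± 0.08) and siURM1 cells (-0.47 ± 0.09) and had -0.14 ± 0.08 in siUBE2M cells. ATG7, the E1-like enzyme of both reactions, fell in siUBE2M cells (-0.28), a value lost without control replicate 1 or 3 or siUBE2M replicate 1 or 2 (-0.25 to -0.24, adjusted p = 0.0531 to 0.0634). ATG5 fell in siURM1 cells (-0.43 ± 0.10) and had 0.14 ± 0.09 and -0.21 ± 0.09 in siNAE1 and siUBE2M cells. ATG12, the ubiquitin-like protein that is joined to ATG5, passed the test nowhere, with 0.01 ± 0.07, 0.07 ± 0.07 and 0.12 ± 0.08.

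Of the 4 LC3 and GABARAP genes tested, 1 rose in siNAE1 cells, 2 rose and 1 fell in siUBE2M cells, and 1 rose in siURM1 cells. A single gene of 4 is 25.0%, near the shares of all genes (27.6% rising in siNAE1, 22.6% falling in siUBE2M and 20.8% rising in siURM1 cells), and the 2 that rose in siUBE2M cells stand beside 22.7% of all genes. GABARAPL2 (ENSG00000034713, chr16:75566351-75577881, plus strand), also called GATE-16, had 82.2, 82.5 and 86.2 CPM in control libraries and 93.1, 98.1 and 100.3 CPM in siNAE1 libraries. It had 66.0, 61.1 and 72.4 CPM in siUBE2M libraries and 100.2 and 104 CPM in siURM1 libraries. The siUBE2M libraries lay below the control and the other knockdowns above it, with no overlap on either side. Its log2 fold changes were 0.22 ± 0.07 (adjusted p = 0.00993), -0.33 ± 0.07 (adjusted p = 0.000275) and 0.29 ± 0.08 (adjusted p = 0.00299). GABARAPL1 rose in siUBE2M cells (0.36 ± 0.08) and had -0.11 ± 0.08 and 0.19 ± 0.08 in siNAE1 and siURM1 cells. MAP1LC3B, the most used marker of autophagosomes, had 0.20 in siUBE2M cells, which was lost without control replicate 1 or 3 or siUBE2M replicate 1 or 3 (0.17 to 0.20, adjusted p = 0.0657 to 0.0912), and 0.03 in each of the others. It has a near-identical copy, MAP1LC3B2, with 16 to 70 counts per library, so some of its fragments may be counted elsewhere.

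GABARAP, the founding member of its branch, was counted at only 13 to 46 fragments per library. The deposited table lists it on chr17:7240014-7242770, where a readthrough gene of the same strand that covers 35.4% of its exon bases in GENCODE v44 had 0 counts in every library and a gene of the opposite strand over 12.8% of them had 7 to 35 counts, and the part of either in its low count was not tested. Its log2 fold changes of 0.69 ± 0.40, 0.92 ± 0.39 and 0.89 ± 0.43 passed the test in no knockdown (adjusted p = 0.147, 0.0550 and 0.0978). Without siUBE2M replicate 1 or 2 the siUBE2M value was 1.10 or 1.21 and passed it (adjusted p = 0.0367 and 0.0165), and with the replicate number as a block the siURM1 value was 1.15 and passed it (adjusted p = 0.0312). At this depth neither a rise nor its absence can be stated for GABARAP.

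Of the 5 cargo receptors, 1 rose and 3 fell in siNAE1 cells, 2 rose and 1 fell in siUBE2M cells, and 1 rose and 2 fell in siURM1 cells. A count of 1 in 5 is near the shares of all genes that rose or that fell (20.8% to 27.6%). In siNAE1 cells SQSTM1 rose while NBR1, TAX1BP1 and CALCOCO2 fell. In siUBE2M cells NBR1 and OPTN rose and CALCOCO2 fell, and in siURM1 cells SQSTM1 rose and TAX1BP1 and CALCOCO2 fell. CALCOCO2 (ENSG00000136436, chr17:48830988-48866522, plus strand), the receptor NDP52 for bacteria and damaged mitochondria, had 124, 133 and 125 CPM in control libraries and 76.9, 80.9 and 74.5 CPM in siNAE1 libraries. It had 98.2, 103 and 104 CPM in siUBE2M libraries and 91.1 and 101 CPM in siURM1 libraries. All knockdown libraries lay below the control, those of siNAE1 lowest. The log2 fold changes were -0.72 ± 0.07 (adjusted p = 1.08e-10), -0.33 ± 0.07 (adjusted p = 0.000130) and -0.41 ± 0.07 (adjusted p = 3.44e-05).

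NBR1 (ENSG00000188554, chr17:43170481-43211689, plus strand), a receptor for ubiquitinated aggregates and peroxisomes, had 104, 104 and 103 CPM in control libraries and 73.1, 79.7 and 76.4 CPM in siNAE1 libraries. It had 119.6, 124 and 113 CPM in siUBE2M libraries and 117 and 109 CPM in siURM1 libraries. The siNAE1 libraries were below the control and the rest above it. Its log2 fold changes were -0.44 ± 0.07 (adjusted p = 1.02e-06), 0.20 ± 0.06 (adjusted p = 0.0134) and 0.12 ± 0.07 (adjusted p = 0.175), and the siUBE2M value was 0.18 without siUBE2M replicate 2 (adjusted p = 0.0512). SQSTM1, the receptor p62 that links ubiquitinated cargo to LC3, had 0.60 ± 0.06 in siNAE1 (adjusted p = 2.07e-09), -0.02 ± 0.06 in siUBE2M and 0.22 ± 0.07 in siURM1 cells, and the last was 0.20 without siURM1 replicate 1 (adjusted p = 0.111). MRNIP lies on the opposite strand of SQSTM1 and had 911 to 1454 counts per library, and its part in these values was not tested. OPTN, optineurin, rose in siUBE2M cells (0.40 ± 0.09) and had 0.12 ± 0.09 and -0.13 ± 0.10 in siNAE1 and siURM1 cells. TAX1BP1 had -0.34, 0.02 and -0.20, and its siURM1 value was lost without control replicate 1 or 3 or either siURM1 replicate (-0.20 to -0.17, adjusted p = 0.0907 to 0.112).

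**Figure D3:**
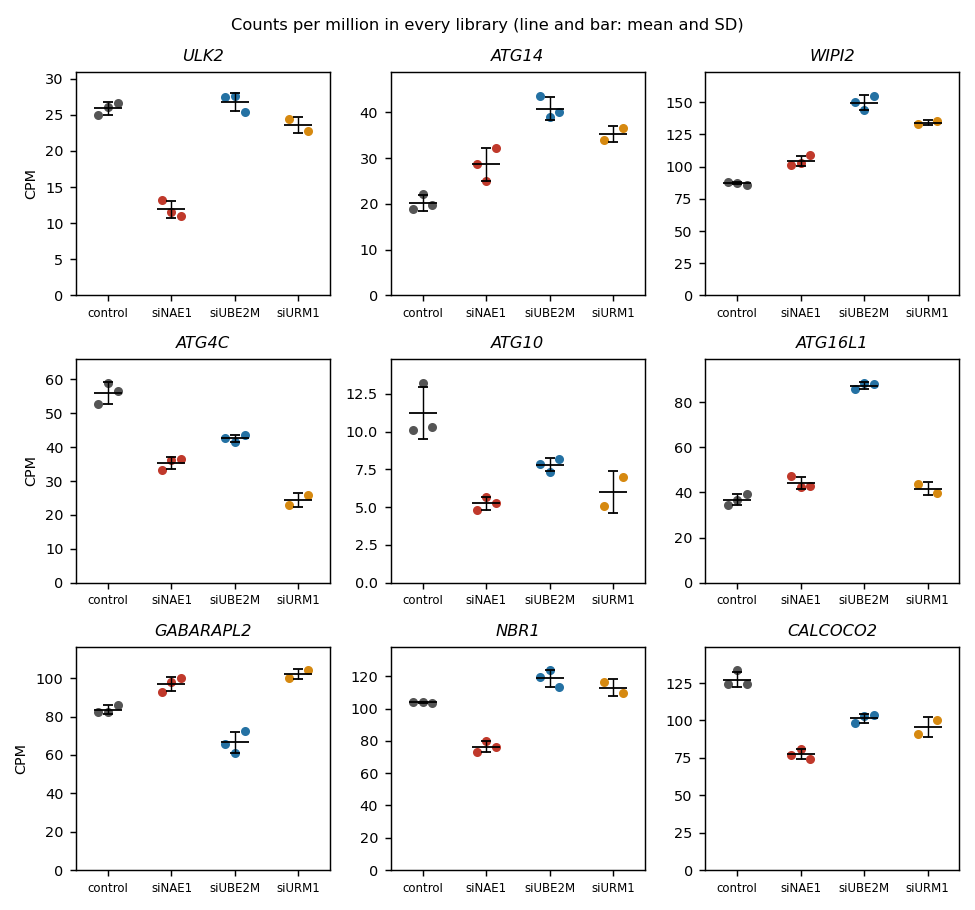
CPM in each library of the 9 autophagy genes whose values are given in full, with a line and bar for the mean and SD of each group (n = 3, 3, 3 and 2) and axes that start at 0. ULK2 is lowest in siNAE1 libraries and ATG16L1 highest in siUBE2M libraries, whereas ATG14 and WIPI2 are raised and ATG4C, ATG10 and CALCOCO2 lowered in every knockdown.

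Read side by side, and with the same control libraries in each comparison, ATG14, WIPI2, ATG2A and ATG9A rose in every knockdown and RB1CC1, ATG13, WDR45, ATG4C, ATG10 and CALCOCO2 fell in every knockdown. These are 10.8% and 16.2% of the 37 genes, beside 9.30% of all tested genes that rose and 9.62% that fell in every knockdown. GABARAPL2 rose in siNAE1 and siURM1 cells and fell in siUBE2M cells, NBR1 rose in siUBE2M cells and fell in siNAE1 cells, and UVRAG, ATG12 and GABARAP passed the test in none. The shares of all tested genes with opposite calls or with none were not counted. Leaving out any 1 library kept ATG14, WIPI2, ATG13, WDR45, ATG4C and CALCOCO2 in their groups, while ATG2A, ATG9A, RB1CC1 and ATG10 left them without the libraries named above. All 24 calls in siNAE1 cells lasted through every such omission, as did 19 of 25 in siUBE2M and 13 of 19 in siURM1 cells.

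Promoter sequence was searched for the members, from 250 bases before to 50 bases after the RefSeq start sites on GRCh38.p14, on both strands. Windows were found for 33 of the 38 genes (41 windows) and not for RB1CC1, UVRAG, ATG4D, MAP1LC3A and WDR45B. The CLEAR core TCACGTGA, a site of the lysosomal factor TFEB, stood in 0.980% of all 35116 promoter windows and in 1 of the autophagy windows (ATG3). The E-box CACGTG, which is contained in it, stood in 7.26% of all and 2 autophagy windows (ATG3 and ATG14). The C/EBP-ATF composite TGATGNAA stood in 3.62% of all and 1 autophagy window (WDR45). The antioxidant response core TGACNNNGC stood in 13.3% of all and 3 autophagy windows (ATG101, CALCOCO2 and MAP1LC3B). The FOXO site GTAAACA stood in 3.42% of all and 2 autophagy windows (CALCOCO2 and WDR45), and the heat shock element in 0.490% of all and 0 autophagy windows. A match each of ATG14 and WDR45 and 2 of CALCOCO2, which had the same call in every knockdown, and the CLEAR core of ATG3 are shown with the matched letters in capitals, 5′ to 3′ on the strand of the gene. They lie at chr3:112561943-112561966 (minus strand) for ATG3, chr14:55411836-55411859 (minus) for ATG14, chrX:49079878-49079901 (minus) for WDR45, and chr17:48830898-48830921 and chr17:48830801-48830824 (plus) for CALCOCO2, and the WDR45 match overlaps that gene's FOXO match. That FOXO match and another E-box of ATG3 are not shown.
ATG3, CLEAR core: gtctagtgTCACGTGAggccccgg
ATG14, E-box: caaaatccCACGTGactggctctc
WDR45, C/EBP-ATF composite: gtagggccTGATGTAAacacccga
CALCOCO2, antioxidant response core (reverse strand): ctcctgggGCCCGGTCAcctgaac
CALCOCO2, FOXO site: aaagaaaaGTAAACAgcttcttcc
Of these genes ATG14 rose and WDR45 and CALCOCO2 fell in all 3 knockdowns, and ATG3 fell in siNAE1 and siURM1 cells. The windows of WIPI2, ATG2A, ATG9A, ATG13, ATG4C and ATG10 held none of the 6 motifs. A match is a run of letters and not a bound site.

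The knockdowns were also compared directly. Between siNAE1 and siUBE2M cells 25 of the 37 genes differed (67.6%, beside 44.3% of all tested genes), 8 higher and 17 lower in siNAE1 cells, with a median log2 difference of -0.22. Between siNAE1 and siURM1 cells 16 differed (43.2%, beside 38.6%), and between siUBE2M and siURM1 cells 21 did (56.8%, beside 35.0%), 15 of them higher in siUBE2M cells, with medians of -0.02 and 0.18. DEGs were 1 (2.70%, beside 7.84% of all genes), 0 (beside 6.76%) and 1 (2.70%, beside 5.41%). Of these 62 calls 44 lasted when any 1 library was left out, and the genes named next are among them.

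ULK2 was the DEG between siNAE1 and siUBE2M cells, with a log2 difference of -1.17 ± 0.11 (adjusted p = 1.30e-10), and it was also lower in siNAE1 than in siURM1 cells (-0.98 ± 0.12, adjusted p = 4.34e-08). That second difference passed the DEG threshold without siNAE1 replicate 1 (-1.07) or siURM1 replicate 2 (-1.03). ATG16L1 was the DEG between siUBE2M and siURM1 cells (1.07 ± 0.09, adjusted p = 2.87e-11), a value of 0.99 without siURM1 replicate 2, and was lower in siNAE1 than in siUBE2M cells (-0.98 ± 0.08, adjusted p = 6.58e-12), a difference past the DEG threshold without siNAE1 replicate 1 (-1.03) or siUBE2M replicate 1 (-1.001). ATG16L2 differed the other way, by 0.57 ± 0.10 between siNAE1 and siUBE2M cells and by -0.67 ± 0.10 between siUBE2M and siURM1 cells. BECN1 separated all 3 knockdowns, in the order siNAE1, siUBE2M and siURM1 from high to low. Its level in siNAE1 cells was above that in siURM1 cells by 0.88 ± 0.09 on the log2 scale (adjusted p = 1.25e-09), or 1.01 without siURM1 replicate 1. Of the proteases, ATG4A and ATG4D were higher in siUBE2M than in siURM1 cells by 0.61 ± 0.11 and 0.71 ± 0.10, and ATG4C by 0.81 ± 0.10 (adjusted p = 6.40e-08). SQSTM1 was higher in siNAE1 than in siUBE2M cells (0.61 ± 0.06) and than in siURM1 cells (0.38 ± 0.07), and NBR1 lower than in siURM1 cells (-0.57 ± 0.07).

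**Figure D4:**
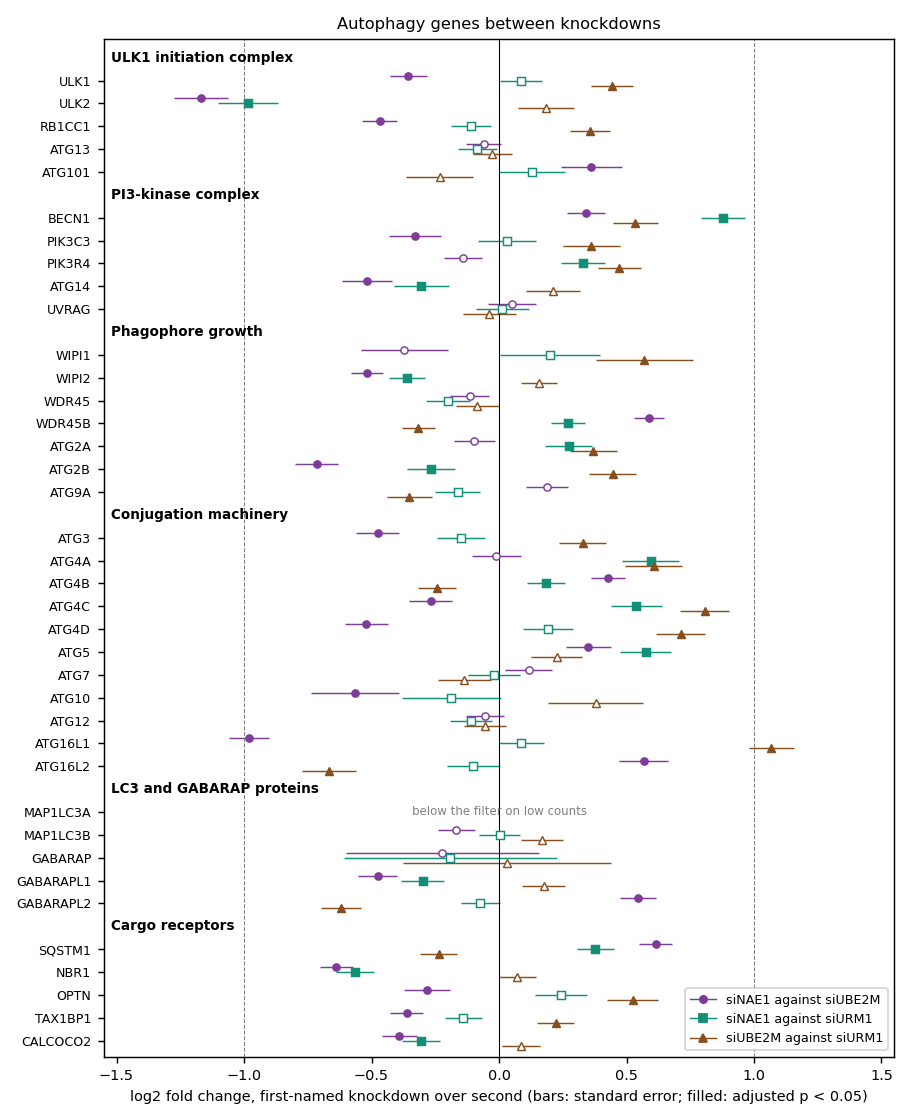
Log2 difference of each autophagy gene between siNAE1 and siUBE2M (circles), siNAE1 and siURM1 (squares) and siUBE2M and siURM1 (triangles), first-named over second, with bars for the standard error and filled symbols for an adjusted p under 0.05. The 2 symbols beyond a dashed line are ULK2 at -1.17 and ATG16L1 at 1.07.

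Genes around this core were counted in 5 further lists, to be read beside the shares of all tested genes that rose and fell, 27.6% and 27.1% in siNAE1, 22.7% and 22.6% in siUBE2M and 20.8% and 20.8% in siURM1 cells. DEGs made up 13.9%, 7.11% and 7.62% of all genes, and no list of 9 to 20 genes held more than 2 in a knockdown. Of 18 other core autophagy genes, 6 rose and 5 fell in siNAE1 cells, 8 and 4 in siUBE2M cells, and 7 and 1 in siURM1 cells, of which the siNAE1 counts (33.3% and 27.8%) lie near the shares of all genes. The only DEG among them was ATG9B, the ATG9A paralogue, in siNAE1 cells (-1.07 ± 0.41, adjusted p = 0.0261). Its SE was about as wide as that of GABARAP in these cells (0.40). Of 18 genes of mTORC1 and AMPK control, which govern the ULK1 complex, 4 rose and 3 fell, 2 rose and 9 fell, and 3 rose and 8 fell in siNAE1, siUBE2M and siURM1 cells, with 0 DEGs. Of 9 transcription factors of autophagy genes, 1 rose and 6 fell in siNAE1 cells, 2 rose and 4 fell in siUBE2M cells, and 0 rose and 2 fell in siURM1 cells. DDIT3, the stress factor CHOP, was the DEG among them in siNAE1 cells (-1.82 ± 0.12, adjusted p = 3.70e-14). It also fell in siUBE2M (-0.91 ± 0.11, adjusted p = 3.90e-08) and siURM1 cells (-0.75 ± 0.12, adjusted p = 9.02e-06). Of 13 genes of fusion with the lysosome, 8 rose and 4 fell in siNAE1, 5 rose and 3 fell in siUBE2M and 5 rose and 3 fell in siURM1 cells, and PLEKHM1, an adaptor between RAB7, HOPS and LC3, was a DEG in siUBE2M cells (1.01 ± 0.10, adjusted p = 2.67e-10). PLEKHM1 also rose in siNAE1 cells (0.40 ± 0.10, adjusted p = 0.000849). Of 20 other cargo receptors, 4 rose and 9 fell, 5 rose and 5 fell, and 3 rose and 8 fell. The DEGs among these were CCPG1 (-1.24 ± 0.16, adjusted p = 1.03e-07) and ATL3 (-1.36 ± 0.09, adjusted p = 4.91e-14), both in siNAE1 cells. ATL3 also fell in siUBE2M (-0.47 ± 0.08, adjusted p = 2.85e-05) and siURM1 cells (-0.38 ± 0.09, adjusted p = 0.00158). The DEGs named from these 5 lists were not checked under other settings or with a library left out.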

How the data were processed

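Polyadenylated RNA of HEK293T cells was sequenced as strand-specific paired reads. Per the labels, the authors used fastp, HISAT2 2.0.5 and featureCounts 1.5.0-p3 on GRCh38, and deposited counts of fragments per gene, without normalization, for 58735 genes. The deposited FPKM values are the authors' own, made from these counts and a listed gene length. Neither the annotation release nor whether counting used the strand is given in the sources used here. Authors' tables of comparisons were not used, and each column of values belonged to 1 library.

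Counts were filtered with filterByExpr, scaled by TMM and fitted in edgeR 4.0.16 (R 4.3.3) in one quasi-likelihood fit of 4 groups and 11 libraries, without covariates. The biological coefficient of variation was 7.06%. The standard error (SE) of a log2 fold change was back-calculated, as its size over the square root of the test's F statistic. CPM were counts over TMM-scaled library totals. With n = 2, the spread of siURM1 was taken largely from the other groups. No pair of libraries held the same values, and the closest pair differed in 26105 genes. P-values were adjusted over all 18368 genes by the Benjamini-Hochberg method, and the DEG threshold followed the study. FPKM served for levels between genes and for limma 3.58.1 fits on log2(FPKM + 1) and log2(FPKM + 0.1), with at least 1 FPKM in 2 libraries.

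The members and all lists (6 classes, 5 further autophagy lists, HEK293 and hepatocyte markers) were chosen with earlier results of these data known, so a list is described by its counts and not tested. Values in every library were given for members that were DEGs in any comparison, the member with the largest change past the threshold in each class, and members that rose in 1 knockdown and fell in another. From the 5 further lists DEGs against control were named. Coordinates are those of the deposited table, of which 17 of 38 members have the same position in GENCODE v44, which served for exon overlaps. Promoter sequences are RefSeq's on GRCh38.p14. Protein sequences were not used here.

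Alternatives were RLE scaling, no filter, at least 10 counts in every library, DESeq2 1.42.0, 2 groups per fit, a replicate block, glmTreat against a 1.2-fold change, protein-coding genes only, removal of a trend with gene length (lowess, span 0.3), log2 FPKM, and leaving out each library. Plots used Python 3.11.15, pandas 2.3.3 and matplotlib 3.10.9.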

Additional observations from a re-analysis of the deposited data

Results flagged for a closer look

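A pair of the 37 autophagy genes tested passed the test upward in at least 1 knockdown and downward in another. The share of all tested genes with such calls was not counted, so the pair cannot be set against it. The pair was picked for those calls, against the same control libraries, so the differences between knockdowns given next are a description of their size and no further support. GABARAPL2 rose in siNAE1 and siURM1 cells and fell in siUBE2M cells. Its level in siNAE1 cells was above that in siUBE2M cells by 0.55 ± 0.07 on the log2 scale (SE, edgeR quasi-likelihood test, adjusted p = 1.67e-07), and the log2 difference of siUBE2M against siURM1 was -0.62 ± 0.08 (adjusted p = 1.65e-07). The libraries of siUBE2M did not overlap those of either other knockdown. NBR1 fell in siNAE1 cells and rose in siUBE2M cells, with a log2 difference of siNAE1 against siUBE2M of -0.64 ± 0.07 (adjusted p = 1.98e-09) and no overlap of libraries. The rise of NBR1 in siUBE2M cells was small and, as given above, did not last without siUBE2M replicate 2.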

How the results depend on the processing

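No alternative turned the direction of a call. Of 146 calls of single genes (autophagy and targeted genes), 1640 values under other settings kept the call and 112 lost it, 63 of these under glmTreat, and 1537 values with 1 library left out kept it and 69 lost it. Against a 1.2-fold change (glmTreat), the autophagy genes past the test numbered 11 in siUBE2M and 11 in siURM1 cells against control, 16 for siNAE1 against siUBE2M, 6 for siNAE1 against siURM1 and 11 for siUBE2M against siURM1, because the test asks for more than a difference from 0. On log2(FPKM + 1), with or without the filter, DEGs against control numbered 0 in siNAE1 and 1 in siUBE2M cells, and 0 for siNAE1 against siUBE2M and for siUBE2M against siURM1, where a pseudocount shrinks the change of low genes. DEGs in siUBE2M cells also numbered 1 on log2(FPKM + 0.1) and with protein-coding genes only, where ATG14 came to 0.993 and 0.999, just under the threshold. With 1 library left out, genes that rose or fell numbered 24 to 26, 22 to 27 and 14 to 20 against control in siNAE1, siUBE2M and siURM1 cells, and 23 to 26, 13 to 17 and 14 to 21 for the comparisons between knockdowns as ordered before. DEGs numbered 1 to 2, 1 to 3, 1 to 2, 1 to 2, 0 to 1 and 0 to 1 in the same order. Between knockdowns the calls lost that way were ATG101, ATG4C, OPTN and PIK3C3 for siNAE1 against siUBE2M, ATG14, ATG2A, ATG2B, ATG4B, CALCOCO2 and GABARAPL1 for siNAE1 against siURM1, and ATG2A, ATG3, ATG4B, ATG9A, PIK3C3, SQSTM1, TAX1BP1 and WIPI1 for siUBE2M against siURM1. ATG4B between siNAE1 and siURM1 (adjusted p = 0.0498) was lost under 17 settings. Over all tested genes, samples with the same replicate number did not deviate together (correlations of -0.0657 to 0.0787). A batch that moves only part of the genes was not tested. With the number as a replicate block, DEGs in siURM1 cells were 2, as GABARAP joined at 1.15 (adjusted p = 0.0312), and the other counts stayed within 1.5 times. GABARAP, with 13 to 46 counts per library, and MAP1LC3A, with 0 to 10, had the fewest counts of the members.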
